A study of Danio rerio with 2 samples.

Results

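Paralogues of 4 enzymes of glycolysis were compared between the testis and the ovary of zebrafish: hexokinase, glyceraldehyde-3-phosphate dehydrogenase, enolase and lactate dehydrogenase. The genes were taken by symbol from the 24539 Ensembl identifiers of an expression table, and 9 of the 10 symbols sought (gapdh, gapdhs, eno1a, eno3, eno4, hk1, hk2, ldha, ldhb and ldhbb) belonged to exactly 1 identifier. The symbol eno1a was not matched to a single identifier, because 2 identifiers carry the human-style symbol ENO1, and both are described with the enolases. Symbols in capitals are printed as the name table gives them, and LDHB stands for the gene also written ldhba. The paralogues were proposed because of their values in these same libraries, so their levels and folds are a description, and no test was made on them.

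The samples were the testes and the ovaries of adult wild-type zebrafish, with no transgene or treatment named in the labels and no age beyond adult. RNA of each organ was sequenced as 1 library, and each library was a pool of 3 fish. The unit is FPKM, in which fragments are scaled for gene length and library total, so that levels of different genes can be set side by side. The deposited values summed to 562394 FPKM (testis) and 572635 FPKM (ovary). The number of reads is unknown, and with a single library per organ no difference has a replicate check. The size rule for calling a gene higher in testis or ovary was a 2-fold ratio on the log2(FPKM + 1) scale with 1 FPKM or more in the higher library. That scale understates the ratio of low genes.

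Glycolysis breaks glucose down to pyruvate and yields ATP without oxygen, and lactate dehydrogenase then turns pyruvate and lactate into each other. Vertebrates carry several genes for most of these enzymes, and teleost fish hold further copies from an additional genome duplication. In mammals, sperm use their own forms of some of these enzymes. There GAPDHS replaces GAPDH in the tail of the sperm, ENO4 is needed for a normally built and motile sperm tail in mouse, and a form of HK1 is made in spermatids. The forms of muscle are known in mammals too: ENO3 is the muscle enolase, and the products of LDHA and LDHB are called the muscle and heart subunits.

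Each of the 4 enzymes held a paralogue that was higher in testis and another that was higher in ovary. GAPDHS, ENO4, HK1 and ldhbb were called higher in testis, GAPDH, ENO3, HK2 and LDHB were called higher in ovary, and LDHA differed by less than 2-fold. All 9 genes reached 1 FPKM. Of the 19053 identifiers of the table that did so, 45.1% were called higher in testis and 16.6% higher in ovary, against 4 of 9 in each direction here. Because the genes were chosen on this contrast, nothing was read from that comparison.

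**Figure D1:**
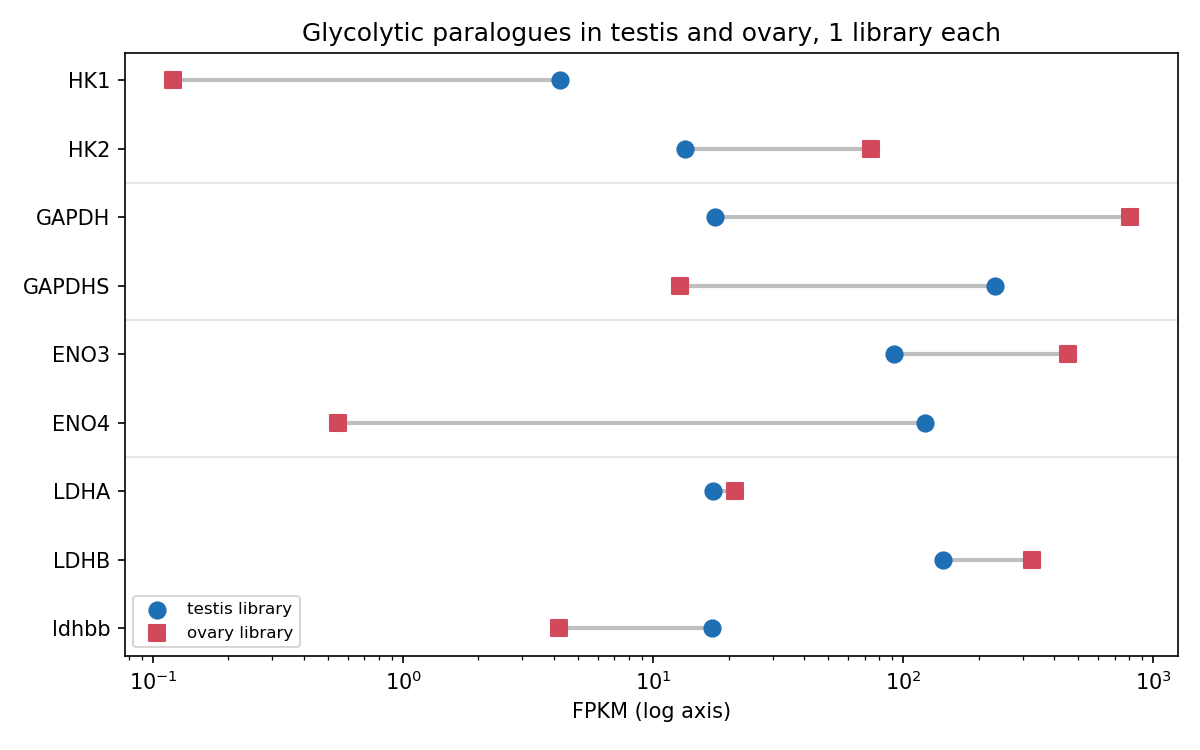
FPKM on a log axis of the 9 paralogues (rows, grouped by enzyme) in the testis library (circles) and the ovary library (squares), with a line joining both values of a gene. In each enzyme at least 1 line runs towards testis and 1 towards ovary, the longest being that of ENO4 from 0.55 to 121.65 FPKM.

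Glyceraldehyde-3-phosphate dehydrogenase, the enzyme that couples sugar oxidation to the making of NADH, showed the widest exchange of paralogues by share of the enzyme. GAPDH (ENSDARG00000043457), the form used by most cells, stood at 17.69 FPKM in testis and 803.68 FPKM in ovary, a 45.4-fold higher level in ovary. GAPDHS (ENSDARG00000039914), named after the sperm form of mammals, stood at 231.99 FPKM in testis and 12.81 FPKM in ovary, an 18.1-fold higher level in testis. The log2 ratios of testis to ovary were -5.43 for GAPDH and 4.08 for GAPDHS. Neither gene was near the lowest values of its low library. Whether its low value includes reads of the other form was not tested.

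The position of GAPDH among all genes differed accordingly. It ranked 99th by level in ovary and 5961st in testis. GAPDHS ranked 261st in testis and 6517th in ovary. Of the 1413 identifiers whose higher value reached 100 FPKM, 163 had a ratio towards ovary at least as large as that of GAPDH, itself included, and 220 had a ratio towards testis at least as large as that of GAPDHS, itself included. GAPDH is widely used as a reference gene in expression assays, and the RefSeq gene table lists gapdh also as an older name of gapdhs.

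Within the enzyme, GAPDHS made up 92.9% of the summed FPKM in testis and 1.57% in ovary, and GAPDH made up 7.09% and 98.4%. A share within an enzyme and a library does not depend on how the libraries are scaled against each other. The level of GAPDHS was 13.1 times that of GAPDH in testis, whereas in ovary the level of GAPDH was 62.7 times that of GAPDHS. Together they came to 249.68 FPKM in testis against 816.49 FPKM in ovary, so that the total for the step was 3.27-fold higher in ovary.

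Enolase, which makes phosphoenolpyruvate in the next-to-last step of pyruvate formation, was divided among 5 identifiers. ENO4 (ENSDARG00000070598) stood at 121.65 FPKM in testis and 0.55 FPKM in ovary. This is a 221-fold higher level in testis and a log2 ratio of 6.31, the largest of the 9 paralogues. ENO3 (ENSDARG00000039007) stood at 91.9 FPKM in testis and 454.05 FPKM in ovary, a 4.94-fold higher level in ovary with a log2 ratio of -2.29. Unlike GAPDH, ENO3 was thus also abundant in the organ where it was lower, ranking 993rd in testis and 188th in ovary.

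Both identifiers named ENO1, the form that most cells of mammals use, were called higher in testis. ENSDARG00000022456 read 40.18 FPKM in testis and 19.4 FPKM in ovary, a 2.07-fold difference that just passed the 2-fold rule. ENSDARG00000013750 read 4.43 and 0.45 FPKM. The nerve cell form eno2 (ENSDARG00000014287) was low in both, at 0.88 FPKM in testis and 0.04 FPKM in ovary, and did not reach 1 FPKM. Which ENO1 identifier is eno1a is not settled by the name table, but without rescaling the call was the same for both. The call of ENSDARG00000022456, at a log2 ratio of 1.01, is lost once the shift of 0.98 towards testis described below is removed.

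ENO4 was the leading enolase of testis with 47.0% of the enzyme's summed FPKM, followed by ENO3 with 35.5% and the higher of the ENO1 identifiers with 15.5%. In ovary ENO3 alone held 95.7%, that ENO1 identifier 4.09% and ENO4 0.116%. The ratio of ENO4 to ENO3 levels was therefore 1.32 in testis, while the ratio of ENO3 to ENO4 was 826 in ovary. The summed level of enolase was 259.04 FPKM in testis and 474.49 FPKM in ovary.

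**Figure D2:**
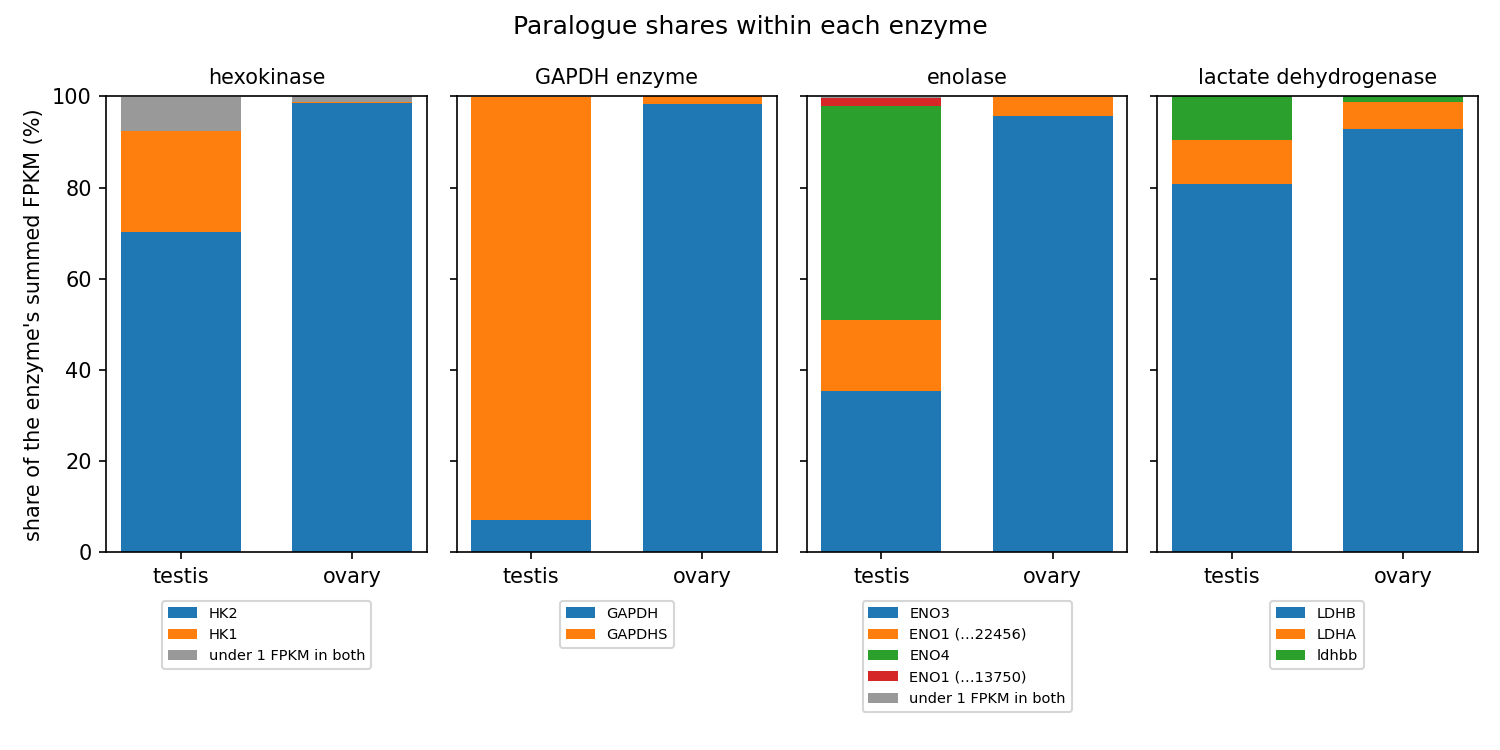
Share in percent of each enzyme's summed FPKM that each identifier holds, in the testis library (left bar) and the ovary library (right bar) of 4 enzymes; the ENO1 identifiers are told apart by the end of their Ensembl number, and identifiers under 1 FPKM in both libraries are drawn together. GAPDHS fills 92.9% of its testis bar, and a single identifier fills over 90% of every ovary bar.

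Hexokinase, which traps glucose in the cell by phosphorylating it, was the least abundant of the 4 enzymes. HK2 (ENSDARG00000101482), in mammals a form of muscle and of dividing cells, stood at 13.43 FPKM in testis and 74.29 FPKM in ovary, 5.53-fold higher in ovary. HK1 (ENSDARG00000039452), in mammals the form of most tissues, stood at 4.22 FPKM in testis and 0.12 FPKM in ovary. The log2 ratios were -2.38 for HK2 and 2.22 for HK1. The plain HK1 ratio of 35.2 rests on an ovary value of 0.12 FPKM, whose number of reads is unknown.

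HK2 led in both organs, so hexokinase did not change its leading form. HK2 held 70.3% of the summed hexokinase level in testis and 98.5% in ovary, and HK1 held 22.1% and 0.159%. HKDC1, a further member of the family, read 0.56 FPKM in testis and was listed at the table's lowest value of 0.01 in ovary. With all 4 identifiers added, hexokinase came to 19.11 FPKM in testis and 75.4 FPKM in ovary, a 3.95-fold higher sum in ovary.

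Lactate dehydrogenase showed the smallest contrasts. LDHB (ENSDARG00000019644) was the leading form in both organs, at 144.51 FPKM in testis and 327.19 FPKM in ovary, 2.26-fold higher in ovary with a log2 ratio of -1.17. Its copy ldhbb (ENSDARG00000071076) stood at 17.19 FPKM in testis and 4.21 FPKM in ovary, 4.08-fold higher in testis with a log2 ratio of 1.80. LDHA (ENSDARG00000101251) stood at 17.34 FPKM in testis and 21.16 FPKM in ovary, a log2 ratio of -0.27, and so did not share in the opposite pattern. In testis LDHA and ldhbb were nearly equal in level, whereas in ovary LDHA was 5.03 times ldhbb.

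As shares of the enzyme, LDHB held 80.7% in testis and 92.8% in ovary, LDHA 9.68% and 6.0%, and ldhbb 9.60% and 1.19%. The summed level was 179.04 FPKM in testis and 352.56 FPKM in ovary, 1.97-fold higher in ovary. Symbols of the mammalian testis form (ldhc, ldhal6a and ldhal6b) were sought as well and matched no identifier.

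Set against each other on the log2(FPKM + 1) scale, the log2 ratios of paralogues differed by 9.50 between GAPDHS and GAPDH, 8.60 between ENO4 and ENO3, 4.60 between HK1 and HK2 and 2.98 between ldhbb and LDHB. With plain FPKM, the ratio of levels between the paralogues changed between the organs by 823-fold, 1093-fold, 195-fold and 9.24-fold in the same order. The order of the first pair of enzymes thus depended on the pseudocount, since ENO4 is under 1 FPKM in ovary. Paralogues with similar sequence can share reads, and how the authors' counting divided such reads is not given in the sources used here.

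How the libraries are scaled bears on the members closest to the 2-fold rule. Over all identifiers that reached 1 FPKM the median log2 ratio was 0.80, and a trimmed mean of log ratios gave a shift of 0.98 towards testis. With that shift removed, LDHA was called higher in ovary (log2 ratio -1.18) and ldhbb no longer reached 2-fold (0.90), which gave 3 paralogues higher in testis and 5 in ovary; over all identifiers the shares became 26.1% and 30.3%. The other 7 paralogues kept their call under that scaling.

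The remaining steps of the pathway included further genes with the same kind of contrast. The glycolysis list held 37 identifiers over 11 steps, the 9 paralogues included. Of the 30 that reached 1 FPKM, 15 (50%) were called higher in testis and 9 (30%) in ovary. Over all identifiers the shares were 45.1% and 16.6%. The 30 include the 9 paralogues, which were chosen on this contrast. Without those paralogues, 11 (52.4%) of 21 were called higher in testis and 5 (23.8%) in ovary. For the 30 the median log2 ratio was 0.88, beside 0.80 over all identifiers. That median turned to -0.18 with a minimum of 5 FPKM and to -0.15 without identifiers that share a symbol, both with no rescaling. After removal of the trimmed mean shift the counts were 12 and 14, beside 26.1% and 30.3% over all identifiers, and the median was -0.07. With the median ratio set to 0 the counts were 13 and 13, beside 25.1% and 30.3% over all identifiers. These rescaled counts include the 9 paralogues and were not made without them.

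Phosphofructokinase, the main control point of the pathway, was split between the organs too. A PFKM identifier (ENSDARG00000014179) led in ovary at 16.72 FPKM against 1.32 FPKM in testis. A PFKP identifier (ENSDARG00000028000) led in testis at 24.36 FPKM against 0.30 FPKM in ovary. The other PFKM identifier (ENSDARG00000060797), chosen for mention after its values were seen, read 3.56 FPKM in testis and 0.14 FPKM in ovary. In all, 4 of the 6 phosphofructokinase identifiers were called higher in testis and 2 in ovary, beside 45.1% and 16.6% over all identifiers.

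The PFKL pair lay in opposite directions as well, chosen for mention after their values were seen. ENSDARG00000060504 read 4.23 FPKM in testis and 0.12 FPKM in ovary, and ENSDARG00000099755 read 2.46 and 9.76 FPKM. Among the 9 symbols of the glycolysis list carried by a pair of identifiers, PFKM and PFKL were the 2 with calls in opposite directions. In the neighbouring lists 1 of 14 such pairs had opposite calls. Of 1111 pairs in the whole table with a summed level of at least 1 FPKM in both libraries, 12.2% had them. The pairs of the lists were not held to that level, and nothing was read from so few.

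Glucose-6-phosphate isomerase and pyruvate kinase, an early and a late enzyme of the pathway, each had an abundant form and a form that read under 1 FPKM in ovary. GPI ENSDARG00000012987 read 79.89 FPKM in testis and 128.73 FPKM in ovary, within 2-fold, and GPI ENSDARG00000103826 read 30.58 and 0.30 FPKM. PKM ENSDARG00000099730 read 74.12 FPKM in testis and 210.84 FPKM in ovary, 2.84-fold higher in ovary. PKLR, in mammals the pyruvate kinase of liver and red cells, read 19.63 and 0.11 FPKM.

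The aldolases, which split the sugar phosphate into trioses, and the mutases, which move a phosphate group, had abundant forms in both organs. ALDOA ENSDARG00000011665 read 125.15 FPKM in testis and 145.79 FPKM in ovary. ALDOC ENSDARG00000019702 read 37.12 and 13.29 FPKM and was called higher in testis. Of the mutases, pgam1a read 50.06 and 55.61 FPKM and pgam1b 22.55 and 47.65 FPKM, the latter called higher in ovary. BPGM, whose product makes the bisphosphoglycerate of red cells, read 59.84 FPKM in testis and 2.12 FPKM in ovary. Red cell markers were higher in the testis library too, with 4 of 5 measured identifiers called so and a sum of 221.81 FPKM (testis) against 19.34 FPKM (ovary). Liver markers were higher there as well, with 9 of 9 called so and a sum of 92.25 FPKM (testis) against 3 FPKM (ovary). Over all identifiers 45.1% were called higher in testis and 16.6% in ovary. The part of red cells and liver cells in the BPGM and PKLR values was not tested.

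Triosephosphate isomerase, which turns the trioses into each other, had abundant identifiers in both organs. TPI1 ENSDARG00000025012 read 76.01 FPKM in testis and 159.8 FPKM in ovary, and TPI1 ENSDARG00000040988 read 65.62 and 38.57 FPKM. The single identifier of phosphoglycerate kinase, the first ATP-yielding enzyme of the pathway, carries the human-style symbol PGK2 and read 99.02 and 158.11 FPKM, within 2-fold.

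**Figure D3:**
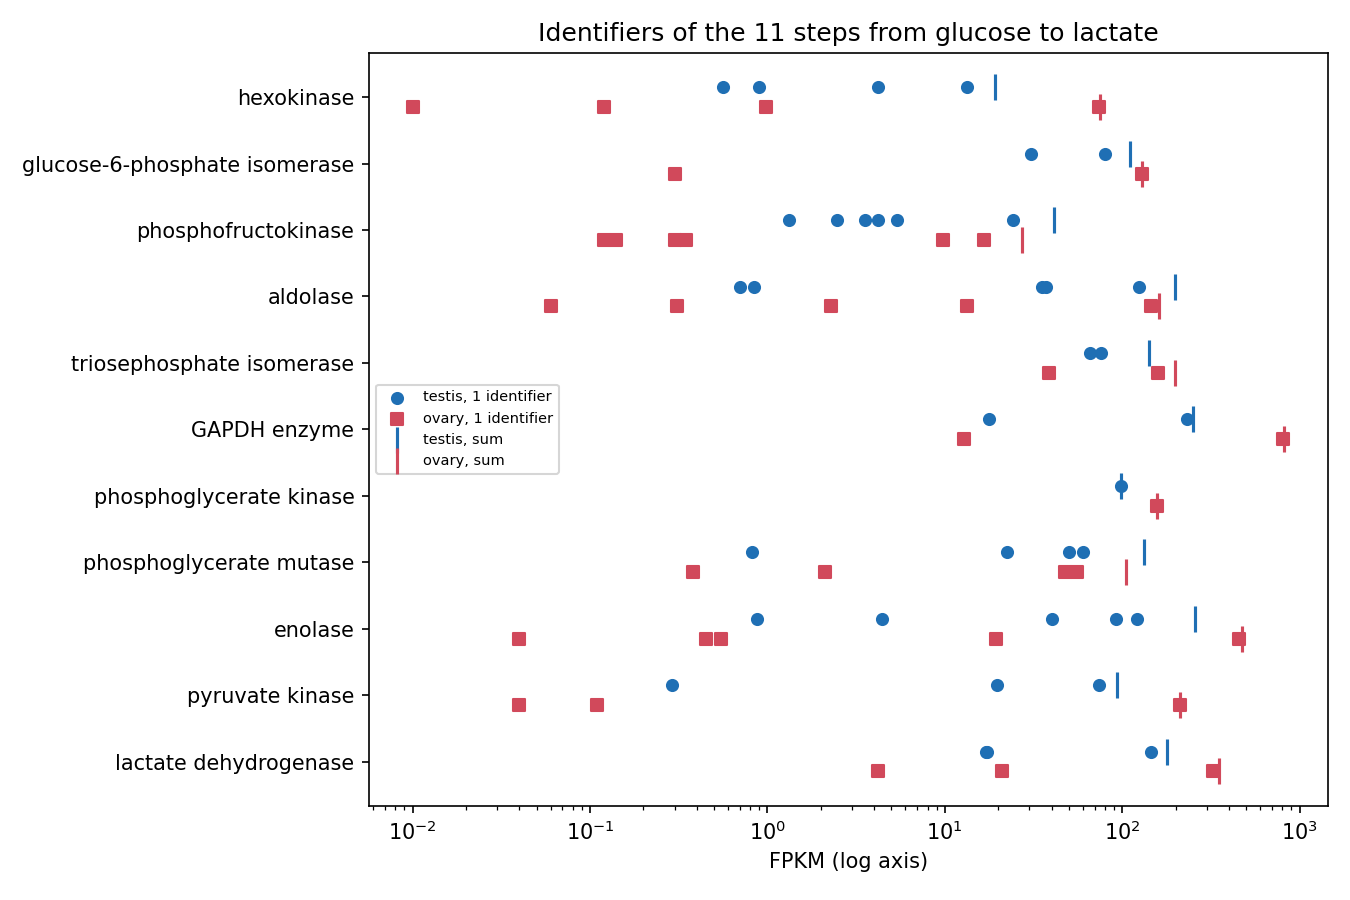
FPKM on a log axis of every identifier of the 11 steps (rows, in pathway order), with testis as circles and ovary as squares, and the sum of a step as a vertical tick. The ovary sum lies right of the testis sum in 8 rows, and left of it for phosphofructokinase, aldolase and phosphoglycerate mutase.

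Added over all identifiers, glycolysis took 1525.99 FPKM (0.271%) of the testis library and 2710.32 FPKM (0.473%) of the ovary library. These totals include the 9 paralogues, which were chosen on this contrast. Without those paralogues the sums were 866.07 FPKM (testis) and 1012.26 FPKM (ovary). The summed level was higher in ovary for 8 of the 11 steps, from 1.17-fold for glucose-6-phosphate isomerase to 3.95-fold for hexokinase. It was higher in testis by 1.51-fold for phosphofructokinase, 1.23-fold for aldolase and 1.26-fold for phosphoglycerate mutase. These 3 turned towards ovary once the trimmed mean shift was removed (1.31-fold, 1.60-fold and 1.57-fold). The mutase sum includes BPGM at 59.84 FPKM (testis) and 2.12 FPKM (ovary), where the part of red cells was not tested. In the same order, pgam1a (50.06 and 55.61 FPKM) and pgam1b (22.55 and 47.65 FPKM) read lower in testis. PGAM2 (0.82 and 0.38 FPKM) read higher there. The direction of the mutase sum without rescaling thus rested on BPGM. For each of the 4 enzymes with named paralogues the sum was higher in ovary, under both scalings.

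**Figure D4:**
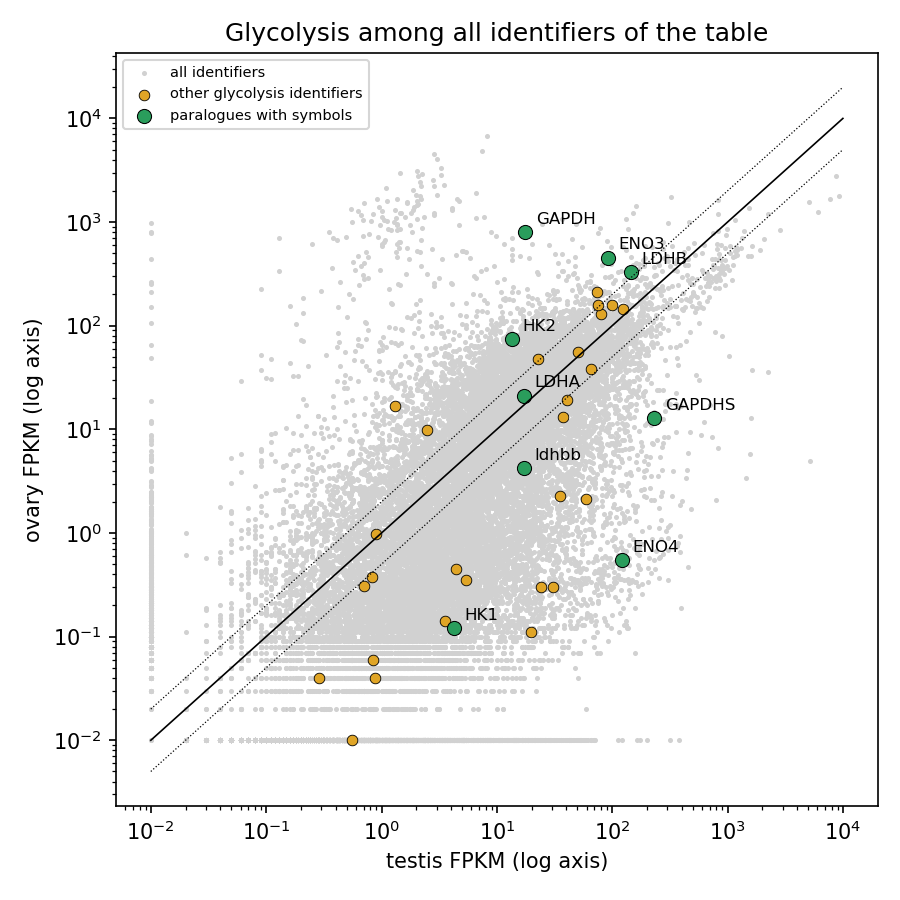
Ovary FPKM against testis FPKM, both on log axes, for all 24539 identifiers (grey), the 9 named paralogues (green, labelled) and the other 28 identifiers of the glycolysis list (yellow); the solid line marks equal values and the dotted lines a 2-fold difference. GAPDH lies far above the lines at 803.68 FPKM in ovary, and ENO4, GAPDHS and HK1 lie far below them.

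Germ cell markers lay on the side that the labels name, but the 3 measured markers of ovarian follicle cells did not. All 10 oocyte markers were called higher in ovary, summing to 39.11 FPKM (testis) and 14933 FPKM (ovary). All 11 measured genes of the sperm tail were called higher in testis, summing to 2181 FPKM (testis) and 39.5 FPKM (ovary); TEKT1, a tektin gene, read 386.49 and 0.66 FPKM. All 3 measured follicle cell markers (inha, FSHR and lhcgr), which somatic cells of the testis also express, were called higher in testis. They summed to 143.55 FPKM (testis) and 3.26 FPKM (ovary). Of the 6 follicle cell symbols sought, cyp19a1a, foxl2a and foxl2b matched no identifier, so follicle cells as a class were not measured. Of measured markers, 8 of 8 for meiotic germ cells and 3 of 3 for Sertoli cells were called higher in testis too. So were 4 of 5 for Leydig cells. Over all identifiers 45.1% were called higher in testis and 16.6% in ovary. GAPDHS, ENO4, HK1 and ldhbb thus lay on the side of the sperm tail, meiotic, Sertoli, Leydig and measured follicle cell markers. Most measured muscle, red cell and liver markers lay on that side too. GAPDH, ENO3, HK2 and LDHB lay on the side of the oocyte markers. These placements follow from the calls, on which the paralogues were chosen, and link no paralogue to a cell type. The part of cell composition in the values of these paralogues was not tested. In whole organs, fewer cells of a type and less RNA per cell cannot be told apart.

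Skeletal muscle markers were set beside ENO3 and LDHA, whose products are muscle forms in mammals. Of 13 measured muscle identifiers, 12 were called higher in testis and none in ovary, beside 45.1% and 16.6% over all identifiers. The muscle sums were 211.82 FPKM (testis) and 6.06 FPKM (ovary). In ovary 6 of the 13, all 4 parvalbumins sought (pvalb1 to pvalb4) among them, were listed at 0.01. The highest there, actc1b, read 2.07 FPKM. ENO3 stood at 454.05 FPKM and LDHA at 21.16 FPKM in that same library, and at 91.9 and 17.34 FPKM in testis. The part of muscle in the values of either organ was not tested.

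The genes closest to ENO4 and GAPDH over both libraries were found by the distance in log2(FPKM + 1), which with 2 values per gene is a weak likeness. For ENO4 they were dnaaf19 (128.04 FPKM in testis, 0.53 in ovary, distance 0.08), ODAD4 (123.75 and 0.68, distance 0.12) and STMN1 (120.12 and 0.73, distance 0.16). For GAPDH they were SCARB1 (20.19 and 617.1, distance 0.42), MT1X (13.42 and 697.59, distance 0.43) and mid1ip1l (24.55 and 961.91, distance 0.52).

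The carriers of lactate take the product of lactate dehydrogenase across the membrane. Without rescaling they were called at shares near those over all identifiers. Of the 7 carrier and helper identifiers that reached 1 FPKM, 3 (42.9%) were called higher in testis and 1 (14.3%) in ovary, beside 45.1% and 16.6%. After removal of the trimmed mean shift the counts were 3 and 2, beside 26.1% and 30.3% over all identifiers. For the 7 the median log2 ratio without rescaling was -0.01, beside 0.80 over all identifiers. SLC16A3 ENSDARG00000045051, in mammals the carrier that lets lactate out of strongly glycolytic cells, read 2.70 FPKM in testis and 131.09 FPKM in ovary, 48.6-fold higher in ovary. SLC16A7 ENSDARG00000098258, in mammals a carrier with high affinity for pyruvate and lactate, read 21.05 and 0.24 FPKM (chosen for mention after its values were seen). Basigin and embigin are helper proteins that bring such carriers to the membrane. BSG read 189.54 and 196.94 FPKM, and emb read 115.91 FPKM in testis and 0.36 FPKM in ovary, a 322-fold higher level in testis.

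Of the glucose transporters, 10 of 16 identifiers reached 1 FPKM, with 6 (60%) called higher in testis and 2 (20%) in ovary. Over all identifiers the shares were 45.1% and 16.6%. After removal of the trimmed mean shift the counts were 4 and 2, beside 26.1% and 30.3% over all identifiers. The highest mean of both libraries was that of SLC2A10, at 27.84 FPKM in testis and 13.44 FPKM in ovary and just under 2-fold on the log2(FPKM + 1) scale. The highest single value was that of slc2a15b in ovary, which read 1.30 FPKM in testis and 35.61 FPKM in ovary. The gene slc2a3b, named after a neuronal transporter of mammals, read 19.46 and 7.49 FPKM.

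Genes that store glucose as glycogen included the highest level among the neighbouring lists, that of GYG1 in ovary. GYG1 ENSDARG00000011934, the glycogenin that primes the polymer, read 32.12 FPKM in testis and 492.35 FPKM in ovary. Glycogen phosphorylase, which frees glucose units, had its liver form PYGL at 2.94 and 109.65 FPKM. Its muscle form PYGM ENSDARG00000013317 read 17.16 and 0.38 FPKM, again in opposite directions. Skeletal muscle markers were higher in testis too, and the part of muscle in the PYGM value was not tested. Of 19 glycogen identifiers that reached 1 FPKM, 8 (42.1%) were called higher in testis and 7 (36.8%) in ovary. Over all identifiers the shares were 45.1% and 16.6%. After removal of the trimmed mean shift the counts were 3 and 10, beside 26.1% and 30.3% over all identifiers.

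Of the 17 genes of pyruvate entry to mitochondria, 9 (52.9%) were called higher in testis and 2 (11.8%) in ovary. Over all identifiers the shares were 45.1% and 16.6%. After removal of the trimmed mean shift the counts were 2 and 4, beside 26.1% and 30.3% over all identifiers. The pyruvate dehydrogenase kinase PDK3 ENSDARG00000014527, which shuts pyruvate out of the mitochondrial cycle, read 33.15 FPKM in testis and 0.56 FPKM in ovary, and the opposing phosphatase PDP1 read 3.48 and 33.49 FPKM. Of the abundant subunits of the dehydrogenase itself, pdha1a read 88.73 and 44.63 FPKM and DLD 81.65 and 42.36 FPKM, both within 2-fold. PDHB (82.8 and 32.98 FPKM) and DLAT (44.82 and 15.71 FPKM), chosen for mention after their values were seen, were called higher in testis.

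Among 13 regulators of glycolysis, 4 (30.8%) were called higher in testis and 3 (23.1%) in ovary, beside 45.1% and 16.6% over all identifiers. With the trimmed mean shift removed the counts were 2 and 4, beside 26.1% and 30.3% over all identifiers. The kinase and phosphatase gene pfkfb1, which sets the activator of phosphofructokinase, read 2.49 FPKM in testis and 34.9 FPKM in ovary. The gene tigara, whose human counterpart lowers that activator, read 12.19 and 0.04 FPKM. Its paralogue tigarb, chosen for mention after its values were seen, lay the other way at 2.75 and 11.09 FPKM. HIF1A, the oxygen-dependent factor that turns on glycolytic genes in mammals, read 52.82 and 45.83 FPKM, and hif1al read 42.03 and 46.85 FPKM.

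In gluconeogenesis, 3 (50%) of the 6 identifiers that reached 1 FPKM were called higher in testis and 1 (16.7%) in ovary. Over all identifiers the shares were 45.1% and 16.6%. PC ENSDARG00000098766, pyruvate carboxylase, read 22.97 FPKM in testis and 50.13 FPKM in ovary, and G6PC3 read 9.62 and 0.78 FPKM. In the pentose phosphate pathway 3 (42.9%) of 7 were called higher in testis and none in ovary, beside 45.1% and 16.6% over all identifiers. With the trimmed mean shift removed the counts were 2 and 2, beside 26.1% and 30.3% over all identifiers. In that pathway TALDO1 read 133.25 and 109.72 FPKM and PGD 26.28 and 51.22 FPKM.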

How the data were processed

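RNA of 1 testis pool and 1 ovary pool was sequenced on BGISEQ-500, per the labels' protocols. HISAT, Bowtie2, RSEM and the build GRCz10 are named in the submitters' processing notes; for versions, settings, strand and annotation nothing is given in the sources used. FPKM were deposited by the authors per Ensembl identifier, with 2 decimals and a lowest value of 0.01, per the file headers and values. Symbols came from a name table (21881 of 24539 identifiers); no coordinates are given, since the RefSeq table is of assembly GRCz12tu. Sequences were not used.

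The members and lists were chosen with earlier results of these data known. Lists were matched by symbol without regard to case, every identifier of a symbol counting. Named genes are all members and identifiers of their enzymes, and, of each other step or list, the 2 with the highest mean and the largest ratio each way among those reaching 10 FPKM (3 highest for marker lists); for the member with the largest ratio each way, the 3 nearest genes. Exceptions are marked; some genes under the rule are not reported here. With 1 library per organ no test was possible, and no interval was given, as read counts were not used. Ratios used a pseudocount of 1. Alternatives were pseudocounts of 0.1 and 5 or none, no minimum or 5 FPKM, a 4-fold rule, a trimmed mean (at each end 30% by log ratio and 5% by abundance left out), the median ratio set to 0, and new totals without each library's 100 most abundant genes. The call rule was run on simulated data only with the trimmed mean scaling and for genes well above the minimum. Calls without rescaling, and those of low genes, were not tested that way. Python 3.11.15, numpy 2.4.6 and pandas 2.3.3 were used.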

Additional observations from a re-analysis of the deposited data

How the results depend on the processing

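The directions of the 8 called paralogues were the same under every alternative run. Counts among the 9 paralogues ranged from 3 to 4 higher in testis and from 3 to 5 higher in ovary. The shares over all identifiers moved too, from 45.1% and 16.6% in the main setting to 26.1% and 30.3% with the trimmed mean. Over all settings they ran from 21.6% (4-fold rule) to 50.2% (pseudocount of 0.1) for testis. For ovary they ran from 6.19% (4-fold rule) to 30.3% (trimmed mean). The count of 3 higher in ovary came from the 4-fold rule and stands beside that 6.19%. HK1 fell below 2-fold with a pseudocount of 5 (log2 ratio 0.85) and, at 4.22 FPKM, left the count with a minimum of 5 FPKM, and LDHB (-1.17) and ldhbb (1.80) did not reach a 4-fold rule. LDHA passed 2-fold towards ovary with the median ratio set to 0 (-1.07). The differences between paralogues ranged from 8.89 to 9.68 (GAPDHS and GAPDH), 6.76 to 10.09 (ENO4 and ENO3), 2.95 to 7.60 (HK1 and HK2) and 2.42 to 3.21 (ldhbb and LDHB).

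Counting the named paralogues alone gave HK1 23.9% and HK2 76.1% of hexokinase in testis, HK2 99.8% in ovary, ENO3 43.0% and ENO4 57.0% of enolase in testis and ENO3 99.9% in ovary, as fewer identifiers are summed. Of the 30 glycolysis identifiers, 9 were called higher in testis with a pseudocount of 5, beside 23.0% over all identifiers. With the 4-fold rule 4 were called higher in ovary, beside 6.19%, and with the trimmed mean 14, beside 30.3%. Without identifiers that share a symbol the counts were 7 and 5, where fewer genes enter. For that setting no share over all identifiers was computed. Among single genes, step sums and the neighbouring lists, 202 recomputed values kept their class, 14 no longer passed the threshold in use (2 of them, LDHB and ldhbb, only that of 4-fold), 12 newly passed it, 32 counts moved by over 1.5 times and none that had passed it changed direction. No paired analysis was possible because each organ has 1 library. Values under 1 FPKM, such as those of ENO4 and HK1 in ovary, are limited by an unknown depth.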

Other observations

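In each of the 10 glycolytic steps with several identifiers, the leading identifier held a larger share of the step in ovary than in testis, a comparison made after the values were seen. The median leading share was 66.5% in testis and 94.2% in ovary. Leading shares in ovary were 99.9% for PKM, 99.8% for GPI, 98.5% for HK2, 98.4% for GAPDH, 95.7% for ENO3, 92.8% for LDHB, 90.1% for ALDOA, 80.6% for TPI1, 61.0% for PFKM and 52.6% for pgam1a. In testis they ran from 44.9% for BPGM to 92.9% for GAPDHS. The 10 steps include the 4 enzymes whose paralogues were chosen on this contrast, and no median was made without them. Leading shares of the other steps in testis were 78.8% (PKM), 72.3% (GPI), 62.8% (ALDOA), 58.9% (PFKP), 53.7% (TPI1) and 44.9% (BPGM). Another identifier led in each organ for 4 of the 10 steps, namely GAPDHS and GAPDH, ENO4 and ENO3, PFKP and PFKM, and BPGM and pgam1a. Of these, GAPDHS, GAPDH, ENO4 and ENO3 were chosen on the contrast. The part of red cells in the BPGM value was not tested. Apart from BPGM, pgam1a was the highest mutase in both organs, and the shares of that step were not computed without BPGM.

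The same measure over all symbols carried by exactly 2 identifiers, with a summed level of at least 1 FPKM in both libraries, had the same direction. Of 1111 such pairs, 762 (68.6%) had the larger leading share in ovary, with medians of 75.3% in testis and 88.7% in ovary. Another identifier led in each organ for 30.6% of these pairs, and 12.2% had calls in opposite directions. The steps have up to 6 identifiers and the pairs 2, so the values stand side by side as a description. The shares do not change with the scaling of the libraries, but identifiers of a symbol can share reads. Of the 24539 identifiers, 3540 were listed at the lowest value of 0.01 in ovary and 430 in testis. In the glycolysis list 1 of 37 was at that value in ovary and 0 in testis. The part of this imbalance in the leading shares was not tested.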
